A study of Mus musculus with 6 samples.

Results

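The axon guidance genes described here are the semaphorins of classes 3 to 7 with their plexin and neuropilin receptors, the ephrins with the Eph receptors, the Slits with the Robo receptors, and the netrins with the Unc5 receptors. Members were picked by a rule on gene symbols that uses no measured value, though the families were proposed with earlier results of these data known, and 67 of the 22800 symbols in the expression tables were taken. Total RNA had been sequenced from 1 line of murine oviductal epithelial (MOE) cells, which was set up from the pooled oviducts of 8-week-old female outbred CD1 mice and carried by serial passaging. MOEHIGH was sampled at passages 90, 103 and 113 and MOELOW at passages 8, 9 and 10, with 1 library for each passage, and no drug or engineered allele is named for either group. The values of 3 libraries are given in this order of passages throughout. A p-value therefore measures the spread between passages of 1 line, and passage number and time in culture cannot be told apart. The comparison asks which of these genes differ after long passaging. The study used the late passages as a model of spontaneous transformation.

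Guidance molecules steer growing axons, but the same ligands and receptors act in epithelia, vessels and tumors, where they set cell adhesion, repulsion and movement. Secreted class 3 semaphorins signal mostly through a neuropilin, which binds the ligand, and a plexin, whose intracellular part acts on small GTPases and the cytoskeleton, while membrane-bound semaphorins usually bind plexins directly. Ephrins are held on the cell surface and signal to Eph receptor tyrosine kinases of a touching cell, Slits repel through Robo receptors, and netrins act through Dcc or neogenin and, for repulsion or survival, through Unc5 receptors.

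Expression was given as FPKM, fragments counted per length of transcript and per depth of library, so levels can be compared between genes. The summed FPKM of a library lay between 597486 and 770709 in MOEHIGH and between 625095 and 684209 in MOELOW. The value heading in each table named another passage or no passage, and 0 of 6 headings matched, so each library was assigned by its sample record. By these records the Pearson correlation across genes was 0.972 to 0.987 within MOEHIGH, 0.981 to 0.985 within MOELOW and 0.835 to 0.873 between the groups. The labelled epithelial type was checked against its markers. Pax8, a transcription factor of the oviductal epithelium, had 41.0, 48.8 and 45.3 FPKM in MOEHIGH and 48.8, 44.4 and 54.4 FPKM in MOELOW, and the keratin genes Krt8, Krt18 and Krt19 were at 22.6 FPKM or more in all 6 libraries. The adhesion genes Epcam and Cdh1, which define most simple epithelia, reached no more than 0.0399 and 0.0821 FPKM, and Cldn3 and Esrp1 were listed at 0 in all 6, so these defining epithelial markers were absent or nearly so. Cldn4 and Cldn7 were at most 0.156 and 0.0864 FPKM. Esrp2 was expressed, with 20.3, 18.4 and 17.3 FPKM in MOEHIGH and 3.28, 2.73 and 1.94 FPKM in MOELOW. Ovgp1, an oviductal marker used by the study, had 0.703 to 1.09 FPKM over the 6 libraries.

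Of the 67 guidance genes, 43 had a mean of at least 0.5 FPKM over the 6 libraries and were tested with limma on log2(FPKM + 1). In MOEHIGH, 8 of these 43 were higher and 23 were lower at an adjusted p of at most 0.05, and 12 did not pass. Among all 11621 genes tested, 24.3% were higher and 32.1% were lower by the same rule, 56.4% in either direction. At least 2-fold on this scale, 5 guidance genes were higher and 12 lower, against 6.22% and 14.0% of all genes tested. The 3 libraries of MOEHIGH lay wholly above those of MOELOW for 8 of the 43 and wholly below for 24, where the shares among all genes tested were 28.5% and 35.5%. The median log2 fold change, MOEHIGH minus MOELOW, was -0.50 over the 43 and -0.05 over all genes tested.

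The filter bears on these counts, since 11 of the 43 had a mean under 0.5 FPKM in MOEHIGH and could pass it only through MOELOW, and 10 of these 11 were among the 23 lower. Sema4d was the 1 gene in the opposite position. The 31 with a mean of at least 0.5 FPKM in both groups, a set formed after the values were seen, held 7 higher (22.6%) and 13 lower (41.9%), against 24.8% and 27.8% of the 10528 genes that met the same condition. The split also moved with the scaling. After quantile normalization 10 guidance genes were higher and 16 lower, and among all genes tested 4022 were higher and 3071 lower, with the median log2 fold change of all genes at 0.10 in place of -0.05. In whole-cell RNA, fewer cells of a type and less RNA per cell cannot be told apart.

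**Figure D1:**
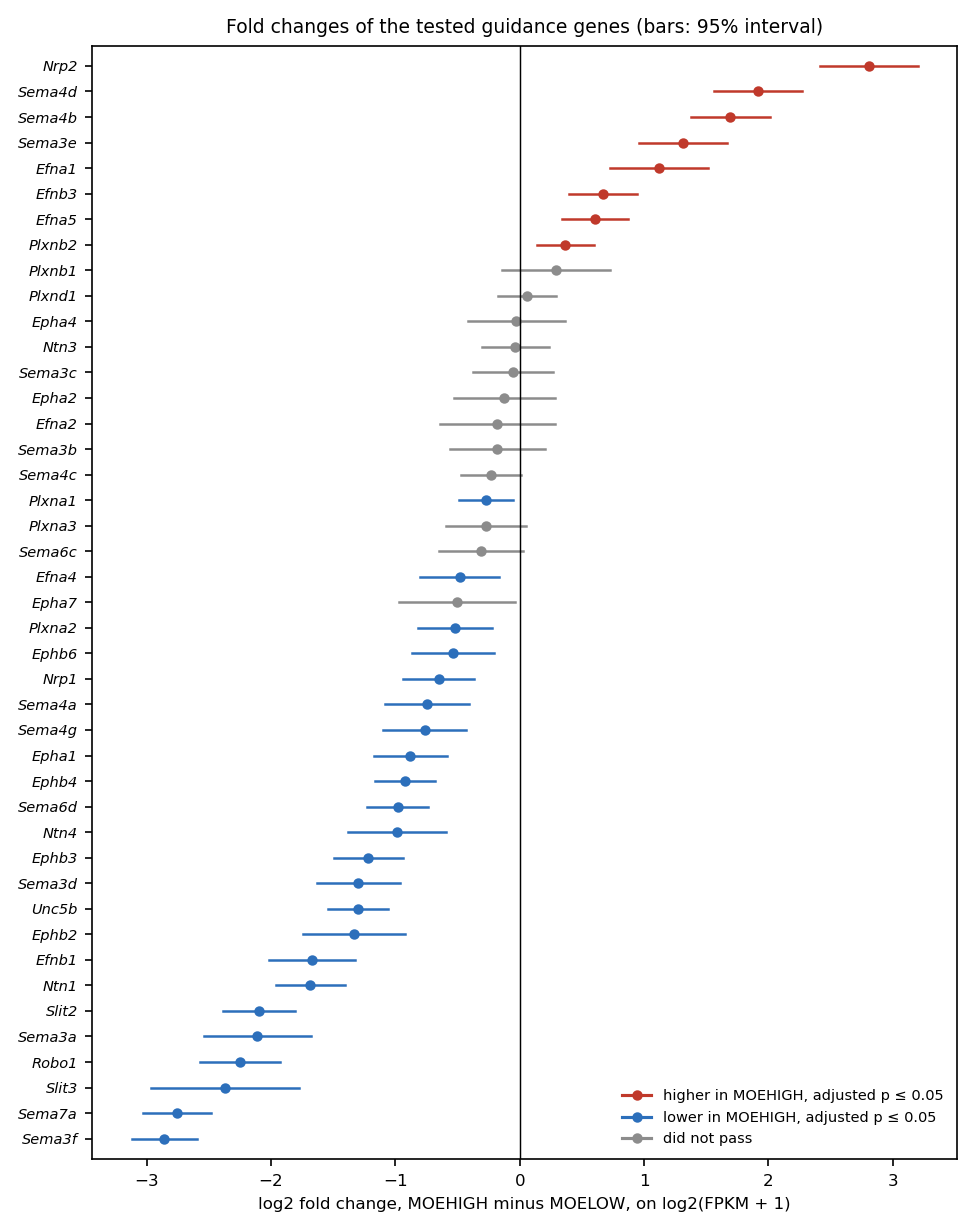
Log2 fold change of the 43 tested guidance genes, MOEHIGH minus MOELOW, on log2(FPKM + 1), 1 row per gene ordered by the value. Points are estimates and bars 95% intervals from limma, with red for the 8 genes higher in MOEHIGH, blue for the 23 lower and grey for the 12 that did not pass. Nrp2 is at the top with 2.81 and Sema3f at the bottom with -2.86.

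Secreted class 3 semaphorins, which repel axons and act on vessels and tumor cells, were given by 7 genes. In MOEHIGH 1 was higher, 3 were lower, 2 did not pass and 1 was not tested. Of all genes tested, 24.3% were higher and 32.1% lower. Among the 3 lower, Sema3d passed the filter only through MOELOW. Sema3f, a ligand that prefers neuropilin 2, lies on chromosome 9 (mm10, 107681499 to 107710475) and had 11.7, 13.6 and 14.8 FPKM in MOEHIGH and 105, 95.8 and 107 FPKM in MOELOW. It was lower in MOEHIGH, with means of 13.3 ± 1.56 FPKM in MOEHIGH and 103 ± 6.05 FPKM in MOELOW (SD, n = 3 each) and a ratio of 0.130 (log2 fold change -2.86, standard error 0.11, adjusted p = 8.0e-07), the lowest value of the 43 on the log2(FPKM + 1) scale, although 7 of the 43, Slit2, Slit3, Robo1, Sema7a, Sema3d, Ntn1 and Epha1, had lower ratios of MOEHIGH to MOELOW. Sema3a, the classical repellent that binds neuropilin 1, had 8.17, 7.08 and 8.10 FPKM in MOEHIGH and 42.4, 43.9 and 27.0 FPKM in MOELOW. Passage 10 was lower than the other MOELOW libraries but still above every MOEHIGH library, and the means of 7.78 ± 0.610 FPKM in MOEHIGH and 37.8 ± 9.37 FPKM in MOELOW gave log2 fold change -2.11, standard error 0.19, adjusted p = 4.9e-05. Sema3e, which can bind plexin D1 without a neuropilin, went the other way with 15.2, 18.0 and 23.2 FPKM in MOEHIGH and 6.98, 6.79 and 6.82 FPKM in MOELOW (log2 fold change 1.31, standard error 0.15, adjusted p = 0.00021).

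Sema3c, a ligand of both neuropilins, was the member of this class with the highest mean in MOEHIGH and did not pass the test. It had 30.8, 26.8 and 38.4 FPKM in MOEHIGH and 33.0, 31.3 and 34.7 FPKM in MOELOW, and the groups overlapped (log2 fold change -0.06, standard error 0.14, adjusted p = 0.75, 95% interval -0.38 to 0.27). Sema3d, at a low level, had 0.0723, 0.137 and 0.116 FPKM in MOEHIGH and 2.35, 1.45 and 1.46 FPKM in MOELOW (log2 fold change -1.30, standard error 0.14, adjusted p = 0.00017). Sema3b, which lies 72.3 kb from Sema3f on chromosome 9, had 0.638, 0.778 and 1.34 FPKM in MOEHIGH and 1.39, 0.879 and 1.21 FPKM in MOELOW, with overlapping groups and a log2 fold change of -0.18 (adjusted p = 0.38), which turned to 0.35 after quantile normalization. Sema3g was under the filter with at most 0.0356 FPKM.

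The order of the class 3 ligands was therefore not the same in both groups. Sema3f gave 56.0% of the summed class 3 FPKM in MOELOW, and Sema3c gave 43.9% in MOEHIGH. The ratio of Sema3e to Sema3f was 1.30, 1.33 and 1.57 in MOEHIGH and 0.0665, 0.0709 and 0.0636 in MOELOW. The ratio of Sema3c to Sema3a was 3.77, 3.79 and 4.74 in MOEHIGH and 0.779, 0.712 and 1.29 in MOELOW. Each ratio is taken within a library and does not change with a linear scaling of it. For both the groups did not overlap. For Sema3e to Sema3f this follows from the values above, as Sema3e was higher and Sema3f lower in every MOEHIGH library, and adds no support.

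Of the 6 class 4 semaphorins, which span the membrane, 2 were higher in MOEHIGH, 2 were lower, 1 did not pass and 1 was not tested. The shares among all genes tested were 24.3% higher and 32.1% lower. Sema4d, which was higher, passed the filter only through MOEHIGH, and Sema4g, which was lower, only through MOELOW. Sema4b, a transmembrane ligand with a PDZ-binding tail, had 19.3, 18.97 and 14.7 FPKM in MOEHIGH and 4.25, 4.67 and 5.28 FPKM in MOELOW and was higher in MOEHIGH, with means of 17.6 ± 2.58 FPKM in MOEHIGH and 4.73 ± 0.521 FPKM in MOELOW (SD, n = 3 each) and a ratio of 3.72 (log2 fold change 1.69, standard error 0.14, adjusted p = 3.2e-05). Sema4d, the ligand of plexin B1, lies on chromosome 13 (mm10, 51685529 to 51793678) and had 2.40, 3.28 and 4.04 FPKM in MOEHIGH and 0.0721, 0.106 and 0.149 FPKM in MOELOW. Every MOEHIGH library was above every MOELOW library (log2 fold change 1.92, standard error 0.15, adjusted p = 2.9e-05). The receptor gene Plxnb1 did not pass, as given with the plexins, and the ratio of Sema4d to Plxnb1 was 0.350, 0.336 and 0.3998 in MOEHIGH and 0.0124, 0.0159 and 0.0168 in MOELOW.

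The remaining class 4 genes had means below 5 FPKM in both groups. Sema4a and Sema4g were lower in MOEHIGH, with log2 fold changes of -0.75 (adjusted p = 0.0030) and -0.76 (adjusted p = 0.0025), and neither passed after quantile normalization (adjusted p = 0.11 and 0.48). Sema4c had 3.97, 3.72 and 4.04 FPKM in MOEHIGH and 4.46, 4.77 and 5.06 FPKM in MOELOW. Its groups did not overlap, but it did not pass (log2 fold change -0.23, standard error 0.10, adjusted p = 0.094). Sema4f was under the filter, with 0.0662 to 0.282 FPKM in MOEHIGH and 0.566 to 0.904 FPKM in MOELOW.

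Among the 7 semaphorins of classes 5 to 7, none was higher in MOEHIGH by the test (1 where no filter was applied), 2 were lower, 1 did not pass and 4 were not tested. The 3 tested, Sema7a, Sema6d and Sema6c, each had a mean under 0.5 FPKM in MOEHIGH. They passed the filter only through MOELOW, so their count is no result. Sema7a, which is held in the membrane by a lipid anchor and binds integrins and plexin C1, lies on chromosome 9 (mm10, 57939596 to 57962865) and had 0.322, 0.0750 and 0.190 FPKM in MOEHIGH and 7.39, 7.09 and 6.72 FPKM in MOELOW. It was lower in MOEHIGH, with means of 0.196 ± 0.123 FPKM in MOEHIGH and 7.07 ± 0.338 FPKM in MOELOW (SD, n = 3 each) and a ratio of 0.0277 (log2 fold change -2.76, standard error 0.12, adjusted p = 1.1e-06), while its receptor gene Plxnc1 stayed at or below 0.0266 FPKM in every library. Sema6d was lower at a lower level, with a log2 fold change of -0.98 (adjusted p = 0.00014). Sema6c had a log2 fold change of -0.31 (adjusted p = 0.10), which passed only when passage 8 was left out (-0.41, adjusted p = 0.0495) and turned to 0.28 after quantile normalization.

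Of the untested members of these classes, Sema5a stood out in its values, with 0, 0 and 0.00401 FPKM in MOEHIGH and 0.938, 0.823 and 0.847 FPKM in MOELOW. Sema6a had 0 to 0.00621 FPKM in MOEHIGH and 0.168 to 0.272 FPKM in MOELOW, Sema6b had 0.120 to 0.308 FPKM in MOEHIGH and 0.0221 to 0.0866 FPKM in MOELOW, and Sema5b was listed at 0 in all 6 libraries.

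**Figure D2:**
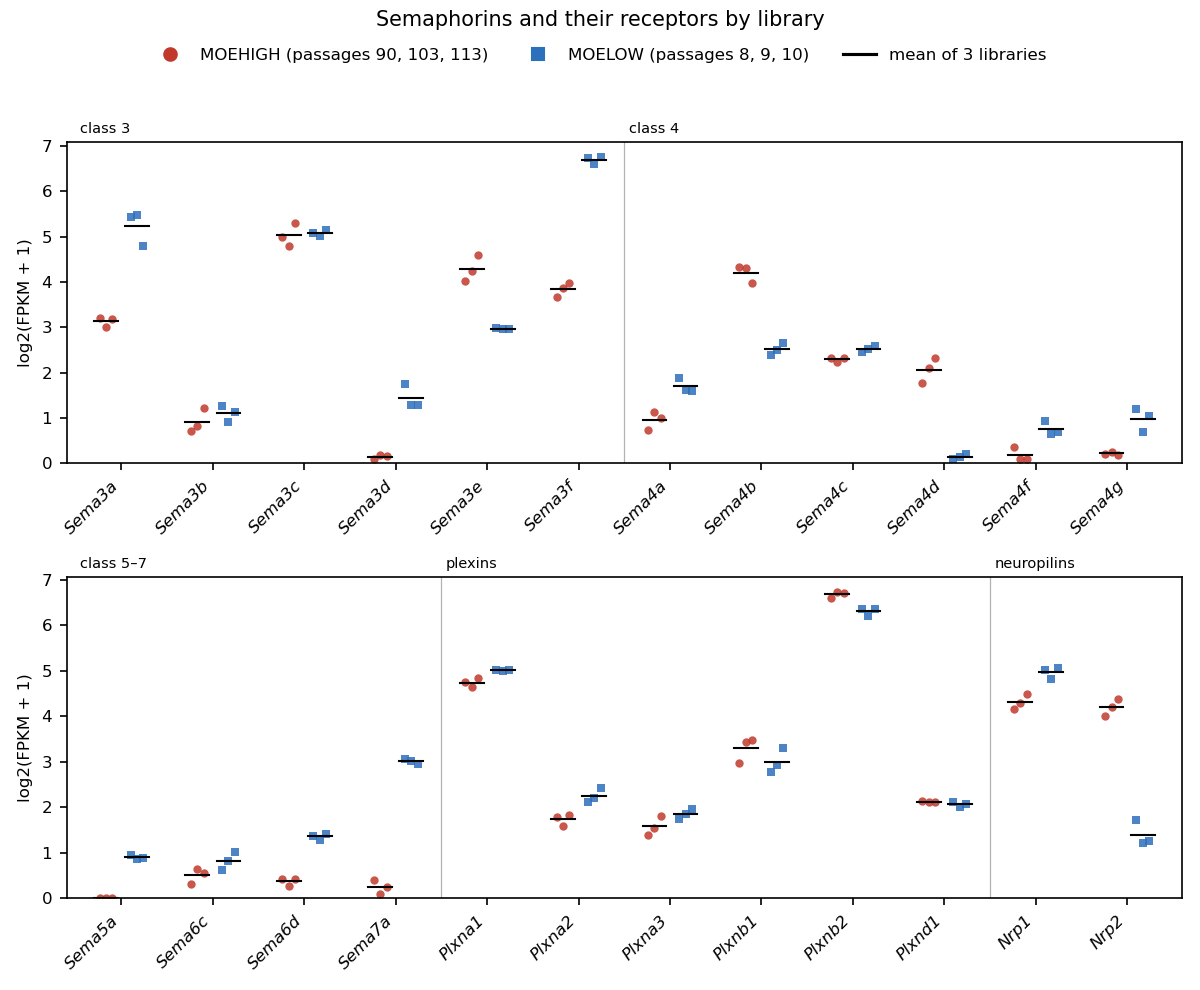
Level of 24 semaphorin, plexin and neuropilin genes with at least 0.5 FPKM in any library, as log2(FPKM + 1) on the vertical axis, with genes grouped by family on the horizontal axis. Red circles are the 3 MOEHIGH libraries, blue squares the 3 MOELOW libraries and black lines their means. Sema3f, Sema3a and Sema7a are lower and Nrp2, Sema4b, Sema4d and Sema3e higher in every MOEHIGH library.

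The neuropilins, which bind class 3 semaphorins and vascular endothelial growth factors, changed in opposite directions. Nrp2 lies on chromosome 1 (mm10, 62703317 to 62818692) and had 15.04, 17.5 and 19.9 FPKM in MOEHIGH and 2.28, 1.31 and 1.39 FPKM in MOELOW. It was higher in MOEHIGH, with means of 17.5 ± 2.43 FPKM in MOEHIGH and 1.66 ± 0.535 FPKM in MOELOW (SD, n = 3 each) and a ratio of 10.5, the highest value of the 43 on the log2(FPKM + 1) scale (log2 fold change 2.81, standard error 0.17, adjusted p = 6.6e-06), although the ratio of Sema4d was higher. Nrp1, on chromosome 8 (mm10, 128358591 to 128505476), had 16.8, 18.7 and 21.3 FPKM in MOEHIGH and 31.2, 27.1 and 32.6 FPKM in MOELOW and was lower in MOEHIGH (log2 fold change -0.65, standard error 0.12, adjusted p = 0.0026). The ratio of Nrp2 to Nrp1 was 0.894, 0.938 and 0.934 in MOEHIGH and 0.0730, 0.0483 and 0.0428 in MOELOW. This separation follows from the values above and adds no support. The 2 receptors were near equal only in MOEHIGH. Their sum was 36.4 ± 4.67 FPKM in MOEHIGH and 32.0 ± 3.05 FPKM in MOELOW, groups that overlapped (exact two-sided permutation test, p = 0.3, where the smallest possible is 0.1).

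Plexin genes were led by Plxnb2, and of 9 members 1 was higher in MOEHIGH, 2 were lower, 3 did not pass and 3 were not tested. The shares among all genes tested were 24.3% higher and 32.1% lower. Plxnb2, a receptor of class 4 semaphorins, had 95.7, 105 and 104 FPKM in MOEHIGH and 81.5, 72.8 and 81.4 FPKM in MOELOW and was modestly higher (log2 fold change 0.37, standard error 0.10, adjusted p = 0.014), but it did not pass without passage 9 (0.31, adjusted p = 0.071) or with equal library totals (0.30, adjusted p = 0.11). It gave 70.4% of the summed plexin FPKM in MOEHIGH and 62.0% in MOELOW. Plxna1, a partner of neuropilins for class 3 signals, had 25.9, 24.1 and 27.4 FPKM in MOEHIGH and 31.5, 30.7 and 31.5 FPKM in MOELOW (log2 fold change -0.27, standard error 0.09, adjusted p = 0.04). This call was lost under 12 of 20 alternatives, among them the fits without passage 90 (-0.27, adjusted p = 0.073), 103 (-0.22, adjusted p = 0.13), 8 (-0.26, adjusted p = 0.11), 9 (-0.28, adjusted p = 0.10) or 10 (-0.26, adjusted p = 0.12).

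Plxna2, another partner of neuropilins, was lower with a log2 fold change of -0.52 (adjusted p = 0.0096) and did not pass after quantile normalization (-0.18, adjusted p = 0.25). Plxnb1, the receptor of Sema4d, had 6.87, 9.76 and 10.1 FPKM in MOEHIGH and 5.80, 6.67 and 8.85 FPKM in MOELOW, with overlapping groups (log2 fold change 0.29, standard error 0.19, adjusted p = 0.22, 95% interval -0.14 to 0.72). Plxna3 had a log2 fold change of -0.27 (adjusted p = 0.13), which passed only when passage 113 was left out (-0.39, adjusted p = 0.024) and turned to 0.12 after quantile normalization. Plxnd1, the receptor of Sema3e, had 3.43, 3.31 and 3.37 FPKM in MOEHIGH and 3.34, 3.03 and 3.24 FPKM in MOELOW and did not pass (0.06, adjusted p = 0.65), although quantile normalization gave 0.37 (adjusted p = 0.012). Plxna4, Plxnb3 and Plxnc1 were under the filter, with Plxna4 at most 0.0509 FPKM, and Plxnb3 was listed at 0 in all MOELOW libraries and at 0.137 to 0.168 FPKM in MOEHIGH.

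The promoter window of Nrp2 is shown because this receptor gene was at the top on the log2(FPKM + 1) scale, and those of Slit2, Slit3 and Robo1 are printed with these genes. Each window runs from 250 bases before to 50 bases after a transcription start of RefSeq on GRCm38.p6, the mm10 assembly, and 58 of the 67 genes had an entry. Capitals mark GC boxes, searched as GGGCGG and its reverse complement CCGCCC, of which overlapping copies are counted apart. The Nrp2 window, on the plus strand, held 37 CpG dinucleotides and 5 GC boxes, and over all 32851 windows the median was 7 CpG and 35.7% held a GC box.
Nrp2 chr1:62703067-62703366: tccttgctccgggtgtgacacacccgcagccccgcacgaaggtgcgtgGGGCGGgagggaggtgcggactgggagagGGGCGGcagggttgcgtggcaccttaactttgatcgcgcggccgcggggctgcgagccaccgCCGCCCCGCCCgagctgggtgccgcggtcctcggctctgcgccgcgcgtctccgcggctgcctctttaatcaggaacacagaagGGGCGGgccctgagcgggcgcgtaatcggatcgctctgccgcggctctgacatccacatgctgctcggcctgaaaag
By contrast, the 3 RefSeq windows of Sema4d, another gene that was higher in MOEHIGH, held 2 to 3 CpG each, so the called genes did not all share this feature.

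A-type ephrins, which are tied to the membrane by a lipid anchor, had 5 genes in the tables. In MOEHIGH 2 were higher, 1 was lower, 1 did not pass and 1 was not tested. The shares among all genes tested were 24.3% higher and 32.1% lower. Efna1, the main ligand of EphA2, had 9.13, 14.0 and 9.14 FPKM in MOEHIGH and 3.98, 4.56 and 4.46 FPKM in MOELOW and was higher in MOEHIGH, with means of 10.8 ± 2.83 FPKM in MOEHIGH and 4.34 ± 0.310 FPKM in MOELOW (SD, n = 3 each) and a ratio of 2.48 (log2 fold change 1.12, standard error 0.17, adjusted p = 0.00088). Passage 103 was the highest, and no MOEHIGH library overlapped MOELOW. Efna5, which binds most EphA receptors, had 10.5, 10.4 and 11.8 FPKM in MOEHIGH and 6.13, 7.46 and 6.89 FPKM in MOELOW (log2 fold change 0.61, standard error 0.11, adjusted p = 0.0025). Efna4, a further A-type ligand, had 6.13, 5.50 and 6.65 FPKM in MOEHIGH and 7.64, 8.73 and 10.5 FPKM in MOELOW and was lower in MOEHIGH (log2 fold change -0.48, standard error 0.14, adjusted p = 0.018). That call was lost without passage 103 (-0.42, adjusted p = 0.062), 9 (-0.50, adjusted p = 0.055) or 10 (-0.37, adjusted p = 0.071).

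Efna1, Efna3 and Efna4 are neighbours on chromosome 3, with 32.9 kb between Efna1 and Efna3 and 10.5 kb between Efna3 and Efna4. Efna1 was higher, Efna4 was lower and Efna3 was under the filter, with 0.0713 to 0.169 FPKM in MOEHIGH and 0.257 to 0.921 FPKM in MOELOW. Efna2 had 0.446, 1.07 and 1.56 FPKM in MOEHIGH and 1.34, 1.26 and 1.12 FPKM in MOELOW and did not pass (log2 fold change -0.18, adjusted p = 0.47).

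B-type ephrins, which span the membrane and can signal back into their own cell, were given by 2 genes, Efnb1 and Efnb3, which moved in opposite directions. No entry carried the symbol Efnb2, so nothing is said of it here. Efnb1 lies on chromosome X (mm10, 99136061 to 99149022) and had 9.23, 9.51 and 13.4 FPKM in MOEHIGH and 36.8, 33.7 and 37.4 FPKM in MOELOW. It was lower in MOEHIGH, with means of 10.7 ± 2.36 FPKM in MOEHIGH and 36.0 ± 2.00 FPKM in MOELOW (SD, n = 3 each) and a ratio of 0.298 (log2 fold change -1.67, standard error 0.15, adjusted p = 5.0e-05). Efnb3 had 11.1, 9.35 and 9.52 FPKM in MOEHIGH and 5.36, 6.46 and 5.95 FPKM in MOELOW and was higher in MOEHIGH (log2 fold change 0.67, standard error 0.12, adjusted p = 0.0019). The ratio of Efnb3 to Efnb1 was 1.203, 0.983 and 0.708 in MOEHIGH and 0.146, 0.192 and 0.159 in MOELOW. This separation follows from the values above and adds no support. The sum of both genes was 20.7 ± 2.08 FPKM in MOEHIGH and 41.9 ± 1.62 FPKM in MOELOW.

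Eph receptors had no member that was higher in MOEHIGH by the test, though 1 was where no filter was applied. Epha2, a receptor tyrosine kinase prominent in epithelia and in many carcinomas, was the most abundant Eph gene, with 84.6% of the summed EphA FPKM in MOEHIGH and 83.7% in MOELOW. It had 121, 76.2 and 87.8 FPKM in MOEHIGH and 98.7, 114 and 93.5 FPKM in MOELOW. The groups overlapped, with passage 90 the highest and passage 103 the lowest of the 6, and the difference did not pass (log2 fold change -0.12, standard error 0.18, adjusted p = 0.58, 95% interval -0.53 to 0.29). Its ligand gene Efna1 was higher while the receptor gene was not called, and their ratio was 0.0752, 0.184 and 0.104 in MOEHIGH and 0.0404, 0.03996 and 0.0477 in MOELOW. Epha4, which binds ephrins of both types, had 17.2, 12.6 and 18.1 FPKM in MOEHIGH and 13.4, 18.1 and 17.2 FPKM in MOELOW (log2 fold change -0.03, standard error 0.17, adjusted p = 0.9, 95% interval -0.42 to 0.36), again with overlapping groups.

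Of the other EphA genes, Epha1 passed the filter only through MOELOW. It was lower in MOEHIGH at a low level, with a log2 fold change of -0.88 (adjusted p = 0.00068). After quantile normalization it did not pass (adjusted p = 0.16). Epha7 had 1.10, 1.03 and 1.76 FPKM in MOEHIGH and 1.54, 2.19 and 3.12 FPKM in MOELOW and did not pass (log2 fold change -0.50, standard error 0.20, adjusted p = 0.064), although it did without passage 113 (-0.64, adjusted p = 0.028) or without passage 8 (-0.68, adjusted p = 0.025). Under the filter were 5 others, among them Epha3 with 0 in all MOEHIGH libraries and 0.0953 to 0.239 FPKM in MOELOW, Epha5 with 0 to 0.00539 FPKM in MOEHIGH and 0.0987 to 0.260 FPKM in MOELOW, and Epha8 with 0 in all 6. Epha6 and Epha10 were at most 0.0242 and 0.0106 FPKM.

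EphB receptors, the usual partners of B-type ephrins, included 4 tested genes, and all 4 were lower in MOEHIGH, against 32.1% of all genes tested. Ephb6 passed the filter only through MOELOW, and Ephb1, which was not tested, had the higher mean in MOEHIGH. Ephb4, a receptor known for venous endothelium and also found in epithelia, had 6.75, 6.96 and 7.09 FPKM in MOEHIGH and 13.4, 13.5 and 15.4 FPKM in MOELOW (log2 fold change -0.92, standard error 0.10, adjusted p = 0.00017). Ephb2 had 1.19, 0.803 and 1.88 FPKM in MOEHIGH and 5.05, 4.17 and 4.82 FPKM in MOELOW (log2 fold change -1.33, standard error 0.18, adjusted p = 0.00045), and Ephb3, which like Ephb2 sorts cells in the intestinal crypt, had 0.865, 0.766 and 0.988 FPKM in MOEHIGH and 3.54, 2.88 and 3.70 FPKM in MOELOW (log2 fold change -1.22, standard error 0.12, adjusted p = 8.6e-05). In each of these 3 genes every MOEHIGH library was below every MOELOW library. Ephb6, a member without kinase activity, had a log2 fold change of -0.54 (adjusted p = 0.013), which turned to 0.06 after quantile normalization. Ephb1 was under the filter, listed at 0 in all MOELOW libraries and at 0.0993 to 0.372 FPKM in MOEHIGH.

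**Figure D3:**
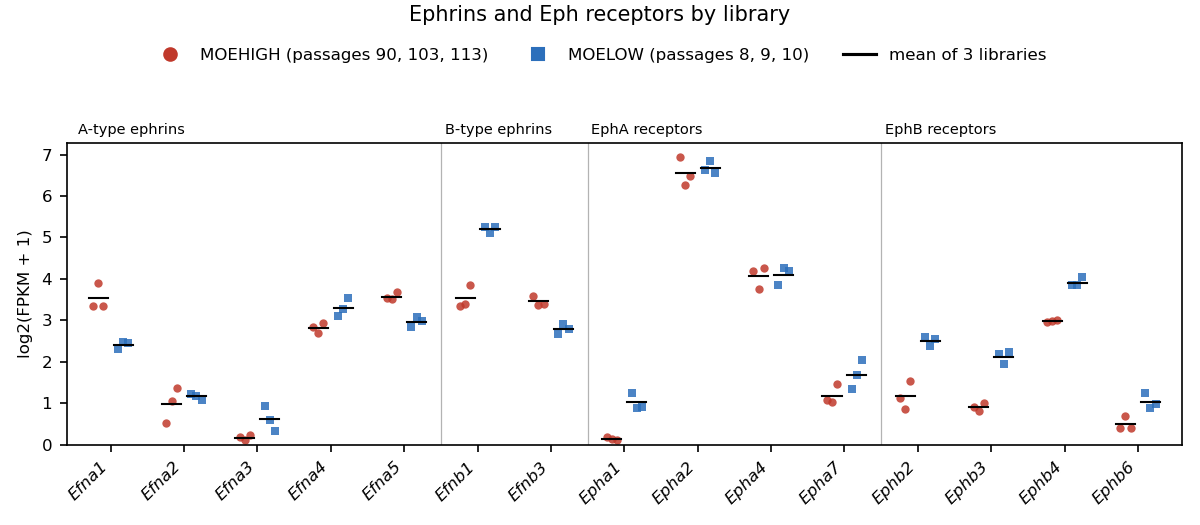
Level of 15 ephrin and Eph receptor genes with at least 0.5 FPKM in any library, as log2(FPKM + 1) on the vertical axis, with genes grouped by family on the horizontal axis. Red circles are the 3 MOEHIGH libraries, blue squares the 3 MOELOW libraries and black lines their means. Efna1, Efna5 and Efnb3 are higher and Efnb1, Ephb2, Ephb3 and Ephb4 lower in every MOEHIGH library, while the libraries of Epha2 and Epha4 overlap.

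The summed levels of the Slits and of the Robos were the lowest of the 13 families in MOEHIGH. The 3 tested members, Slit2, Slit3 and Robo1, were lower, but each passed the filter only through MOELOW, so their count is no result, while Slit1 and Robo3, which were not tested, had the higher mean in MOEHIGH. Slit2 and Slit3 encode large secreted proteins that repel cells through Robo receptors. Slit2 lies on chromosome 5 (mm10, 47981291 to 48307735) and had 0.0134, 0.00694 and 0.0129 FPKM in MOEHIGH and 2.85, 3.21 and 4.0 FPKM in MOELOW (log2 fold change -2.10, standard error 0.12, adjusted p = 6.0e-06). Slit3, on chromosome 11 (mm10, 35121456 to 35708507), had 0, 0.0116 and 0.0190 FPKM in MOEHIGH and 7.24, 3.29 and 3.01 FPKM in MOELOW. Passage 8 was more than 2 times as high as the other MOELOW libraries, and all 3 were far above MOEHIGH (log2 fold change -2.37, standard error 0.26, adjusted p = 0.00015). Without passage 8 the log2 fold change was -2.04 (adjusted p = 1.5e-05). Robo1, the main receptor of both, lies on chromosome 16 (mm10, 72027518 to 73047491) and had 0.0133, 0.00692 and 0.00622 FPKM in MOEHIGH and 3.29, 3.42 and 4.81 FPKM in MOELOW (log2 fold change -2.25, standard error 0.14, adjusted p = 7.3e-06).

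Thus the ligands and their receptor were all at or under 0.0190 FPKM in MOEHIGH and at or above 2.85 FPKM in MOELOW. No ratio is given against values this near 0, and the fold change on the log2(FPKM + 1) scale understates such a difference. Its size depends on the pseudocount, and with one of 0.01 it was -7.32 for Slit2, -7.82 for Slit3 and -7.67 for Robo1. Slit1, Robo2, Robo3 and Robo4 were under the filter, with Slit1 at most 0.0564 FPKM. Robo2 was listed at 0 in all MOEHIGH libraries and had 0.0727, 0.0998 and 0.0822 FPKM in MOELOW. Robo3, a receptor of commissural axons, had 0.150, 0.0866 and 0.0766 FPKM in MOEHIGH and 0.0285, 0.0388 and 0.0513 FPKM in MOELOW, and its neighbour Robo4, known for endothelium and 2.02 kb away, was at most 0.0177 FPKM.

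The promoter windows of Slit2, Slit3 and Robo1 are shown because these genes had the lowest MOEHIGH means among the 43 tested, and all 3 are on the plus strand with GC boxes in capitals as for Nrp2. The starts used for Slit2 and Robo1 lie inside the gene's RefSeq span, downstream of its first base.
Slit2 chr5:47982905-47983204: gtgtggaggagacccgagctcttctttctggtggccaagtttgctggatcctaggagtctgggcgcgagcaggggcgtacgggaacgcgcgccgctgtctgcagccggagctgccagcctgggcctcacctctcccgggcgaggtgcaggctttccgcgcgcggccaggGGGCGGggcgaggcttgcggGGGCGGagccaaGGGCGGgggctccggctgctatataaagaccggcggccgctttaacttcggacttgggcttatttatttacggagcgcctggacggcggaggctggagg
Slit3 chr11:35121206-35121505: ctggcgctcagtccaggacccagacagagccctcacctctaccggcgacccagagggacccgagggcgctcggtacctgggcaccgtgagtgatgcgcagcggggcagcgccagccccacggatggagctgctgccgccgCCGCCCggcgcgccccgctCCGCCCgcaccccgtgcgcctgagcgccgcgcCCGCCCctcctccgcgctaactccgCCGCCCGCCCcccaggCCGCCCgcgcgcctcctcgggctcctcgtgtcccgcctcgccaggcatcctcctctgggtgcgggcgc
Robo1 chr16:72662899-72663198: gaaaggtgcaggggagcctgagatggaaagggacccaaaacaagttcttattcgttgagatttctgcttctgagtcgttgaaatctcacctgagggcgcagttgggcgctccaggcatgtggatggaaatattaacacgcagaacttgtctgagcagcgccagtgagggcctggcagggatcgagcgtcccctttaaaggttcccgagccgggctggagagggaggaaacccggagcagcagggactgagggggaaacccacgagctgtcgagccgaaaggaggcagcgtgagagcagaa
The Slit2 window held 30 CpG and 3 GC boxes with 1 TATAAA, the Slit3 window 41 CpG and 6 GC boxes, and the Robo1 window 15 CpG and no GC box but 3 copies of CANNTG, the E-box. TATAAA was found in 13.6% and CANNTG in 72.3% of all windows, both strands searched. A CpG count of at least 15 was found in 34.6% of all windows. These letters are a description of the windows, and binding or methylation there was not measured.

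Of the 4 netrin and Unc5 genes tested, 3 were lower in MOEHIGH, against 32.1% of all genes tested. Of the 3, Ntn1 passed the filter only through MOELOW. Ntn3 did not pass, except that it was higher after quantile normalization. Ntn1, a laminin-related attractant and repellent, had 0.352, 0.176 and 0.0754 FPKM in MOEHIGH and 2.76, 2.72 and 3.05 FPKM in MOELOW (log2 fold change -1.68, standard error 0.12, adjusted p = 1.6e-05), and the libraries did not overlap. Ntn4, which is built into basement membranes, was lower with a log2 fold change of -0.99 (adjusted p = 0.0017). Ntn3 had 1.53, 1.18 and 1.64 FPKM in MOEHIGH and 1.41, 1.61 and 1.49 FPKM in MOELOW with overlapping groups (log2 fold change -0.04, adjusted p = 0.81), with 0.43 after quantile normalization (adjusted p = 0.013). Ntn5 was listed at 0 in 5 libraries and at 0.0592 FPKM in passage 9.

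Unc5b, a receptor that repels on netrin binding and can favour cell death without it, gave nearly all of the Unc5 signal, with 99.99% of the summed FPKM in MOEHIGH and 98.7% in MOELOW. It lies on chromosome 10 (mm10, 60762594 to 60831581), had 25.1, 24.0 and 29.3 FPKM in MOEHIGH and 66.5, 65.6 and 65.0 FPKM in MOELOW, and was lower in MOEHIGH, with means of 26.1 ± 2.74 FPKM in MOEHIGH and 65.7 ± 0.787 FPKM in MOELOW (SD, n = 3 each) and a ratio of 0.398 (log2 fold change -1.30, standard error 0.10, adjusted p = 2.8e-05). Every MOEHIGH library was below every MOELOW library. Unc5c was under the filter, with 0, 0.00412 and 0 FPKM in MOEHIGH and 0.813, 0.763 and 0.984 FPKM in MOELOW, so its groups did not overlap either. Unc5a and Unc5d were listed at 0 in all MOEHIGH libraries and were at most 0.0194 FPKM in MOELOW.

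**Figure D4:**
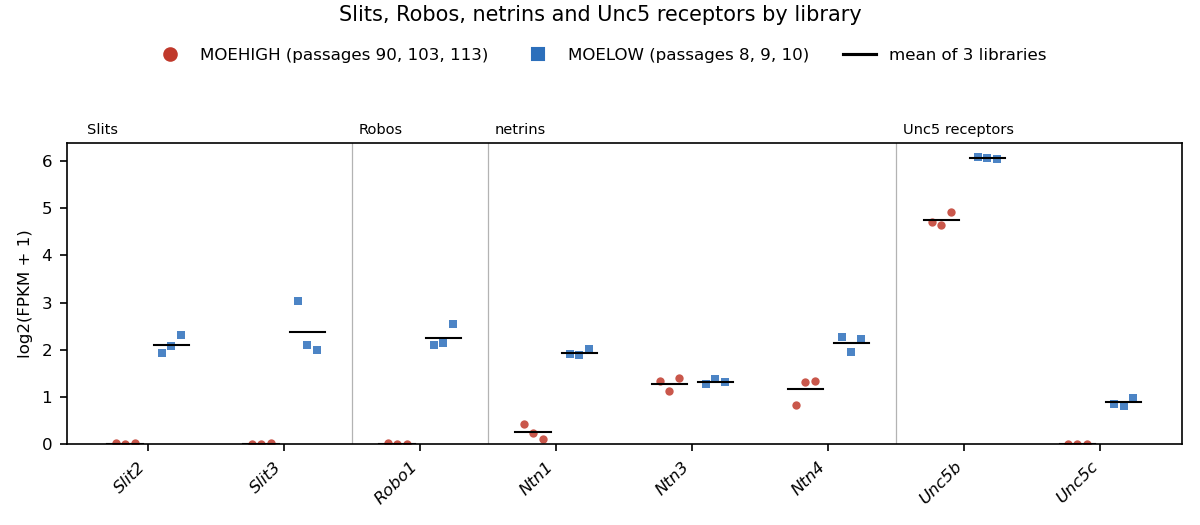
Level of 8 Slit, Robo, netrin and Unc5 genes with at least 0.5 FPKM in any library, as log2(FPKM + 1) on the vertical axis, with genes grouped by family on the horizontal axis. Red circles are the 3 MOEHIGH libraries, blue squares the 3 MOELOW libraries and black lines their means. Slit2, Slit3, Robo1 and Unc5c are at or near 0 in MOEHIGH, and the libraries of Ntn3 overlap.

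Sums of FPKM over a family weight its abundant members. The class 3 semaphorins summed to 73.0 ± 11.3 FPKM in MOEHIGH and 183 ± 6.99 FPKM in MOELOW, and every MOEHIGH library lay below every MOELOW library. For the class 4 semaphorins every MOEHIGH library lay above, with 26.0 ± 1.85 FPKM in MOEHIGH and 13.6 ± 0.706 FPKM in MOELOW. Sema4b gave 67.7% of the class 4 sum in MOEHIGH. The membrane-bound semaphorins of classes 5 to 7 lay wholly below, with 1.14 ± 0.0960 FPKM in MOEHIGH and 10.5 ± 0.225 FPKM in MOELOW. The EphB receptors summed to 9.72 ± 0.588 FPKM in MOEHIGH and 23.2 ± 1.74 FPKM in MOELOW, and the EphA receptors to 113 ± 25.3 FPKM in MOEHIGH and 122 ± 11.7 FPKM in MOELOW, which overlapped (exact two-sided permutation test, p = 0.5). The Slits summed to 0.0641 ± 0.0213 FPKM in MOEHIGH and 7.88 ± 1.96 FPKM in MOELOW, the netrins to 2.92 ± 0.290 FPKM in MOEHIGH and 7.84 ± 0.534 FPKM in MOELOW and the Unc5 receptors to 26.1 ± 2.74 FPKM in MOEHIGH and 66.6 ± 0.709 FPKM in MOELOW. For 11 of the 13 families the 3 MOEHIGH sums lay wholly on one side of the 3 MOELOW sums, which gives p = 0.1 in the exact two-sided permutation test, the smallest possible with 3 against 3, so no family sum could reach 0.05.

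**Figure D5:**
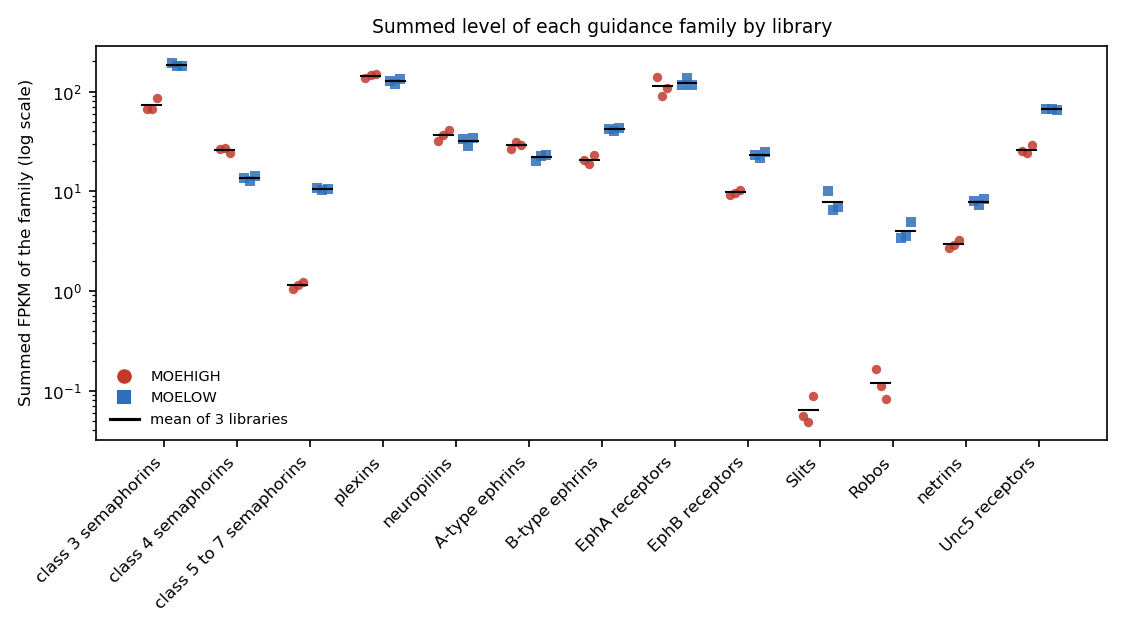
Summed FPKM of each of the 13 guidance families per library on a log axis, with 1 column per family. Red circles are the 3 MOEHIGH libraries, blue squares the 3 MOELOW libraries and black lines their means. For class 4 semaphorins, plexins and A-type ephrins every MOEHIGH library lies above every MOELOW library, Slits and Robos are lowest in MOEHIGH, and the neuropilin and EphA sums overlap.

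Genes that act with these ligands and receptors were described from 5 lists of co-receptors and effectors. Their counts are set against the 24.3% higher and 32.1% lower among all genes tested. Some lower genes had a mean under 0.5 FPKM in MOEHIGH and passed the filter only through MOELOW. They were Dpysl3, Fes, Kdr and Itga1 in the semaphorin list and Vav3 and Cldn1 in the Eph list. In the Slit list they were Srgap1, Srgap3, Pak3 and Sdc3, and in the netrin list Lrrc4c, Dapk1 and Adora2b. Crmp1, Arhgef16 and Prrg4 passed only through MOEHIGH. The filter fixed the direction of these genes, which the counts and medians include. Of 30 tested semaphorin co-receptors and effectors 3 were higher, 18 lower and 9 did not pass, with a median log2 fold change of -0.68. Dpysl3, a collapsin response mediator that relays semaphorin signals to microtubules, had 0.319, 0.312 and 0.559 FPKM in MOEHIGH and 128, 118 and 134 FPKM in MOELOW (log2 fold change -6.52, standard error 0.11, adjusted p = 1.2e-07). Mical1, an oxidase that takes actin filaments apart downstream of plexins, had 0.909 ± 0.331 FPKM in MOEHIGH and 11.0 ± 0.882 FPKM in MOELOW (log2 fold change -2.67, adjusted p = 4.2e-06), and the GTPase gene Mras had 3.45 ± 0.641 FPKM in MOEHIGH and 17.2 ± 1.504 FPKM in MOELOW (-2.04, adjusted p = 1.1e-05). Higher were Met, the hepatocyte growth factor receptor that can join plexin B1, with 38.6 ± 7.27 FPKM in MOEHIGH and 22.3 ± 4.198 FPKM in MOELOW (0.77, adjusted p = 0.0068), and the GTPase gene Rhod with 27.2 ± 5.84 FPKM in MOEHIGH and 13.9 ± 0.942 FPKM in MOELOW (0.90, adjusted p = 0.0021).

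Of 30 tested Eph and ephrin effectors 4 were higher, 14 lower and 12 did not pass, with a median of -0.36. Arhgef16, an exchange factor reported to bind EphA2, had 10.7, 10.0 and 6.06 FPKM in MOEHIGH and 0.0314, 0 and 0.0560 FPKM in MOELOW (log2 fold change 3.24, standard error 0.19, adjusted p = 6.1e-06), so it was far higher in all MOEHIGH libraries. The chimaerin genes Chn1 and Chn2, whose products switch off Rac downstream of Eph receptors, were higher too, with log2 fold changes of 0.73 (adjusted p = 0.00045) and 0.97 (adjusted p = 0.00015). Lower were Rgs3, which links B-type ephrins to G proteins, with 0.650 ± 0.195 FPKM in MOEHIGH and 20.9 ± 1.67 FPKM in MOELOW (-3.73, adjusted p = 4e-07), the tight junction gene Cldn1 with 0.0350 ± 0.0249 FPKM in MOEHIGH and 7.44 ± 2.97 FPKM in MOELOW (-2.97, adjusted p = 1.9e-05), and the phosphatase gene Ptpn13 with 54.6 ± 8.37 FPKM in MOEHIGH and 153 ± 2.35 FPKM in MOELOW (-1.48, adjusted p = 3.6e-05).

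Of 24 tested Slit and Robo effectors 2 were higher, 11 lower and 11 did not pass, with a median of -0.53. Heparan sulfate proteoglycans, which hold Slits at the cell surface, were split, with the syndecan genes Sdc2 at 5.64 ± 1.21 FPKM in MOEHIGH and 59.0 ± 3.97 FPKM in MOELOW (log2 fold change -3.19, adjusted p = 1.6e-06) and Sdc3 at 0.361 ± 0.159 FPKM in MOEHIGH and 13.2 ± 1.11 FPKM in MOELOW (-3.39, adjusted p = 6.5e-07), and the glypican gene Gpc1 at 31.0 ± 3.70 FPKM in MOEHIGH and 22.8 ± 1.74 FPKM in MOELOW (0.42, adjusted p = 0.016). Gpc1 did not pass without passage 9 (0.39, adjusted p = 0.067) or 10 (0.39, adjusted p = 0.063). Nell2, a ligand of Robo3 in the nervous system, had 1.018 ± 0.259 FPKM in MOEHIGH and 10.1 ± 1.68 FPKM in MOELOW (-2.46, adjusted p = 8.4e-06).

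Of 13 tested netrin receptors and partners 4 were higher, 8 lower and 1 did not pass, with a median of -0.76. Neo1, which encodes neogenin, a receptor of netrins and of repulsive guidance molecules, was higher with 26.1, 24.7 and 23.4 FPKM in MOEHIGH and 13.2, 10.3 and 12.5 FPKM in MOELOW (log2 fold change 0.99, standard error 0.12, adjusted p = 0.00024), against the direction of Unc5b. Its ligands of the repulsive guidance family were lower, Rgma with 1.07 ± 0.215 FPKM in MOEHIGH and 7.86 ± 1.74 FPKM in MOELOW (log2 fold change -2.09, adjusted p = 2.4e-05) and Rgmb with 3.13 ± 0.361 FPKM in MOEHIGH and 6.29 ± 0.779 FPKM in MOELOW (-0.82, adjusted p = 0.00098). The actin-binding gene Ablim1 was higher (1.57, adjusted p = 0.00036), and Maged1, which binds Unc5 receptors, was lower with 72.4 ± 10.3 FPKM in MOEHIGH and 161 ± 10.2 FPKM in MOELOW (-1.15, adjusted p = 0.00016). Siah1b, a ubiquitin ligase gene, was higher by a narrow margin (0.43, adjusted p = 0.033), and the call was lost without passage 90 (0.36, adjusted p = 0.094), 103 (0.44, adjusted p = 0.070), 9 (0.43, adjusted p = 0.088) or 10 (0.31, adjusted p = 0.12).

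Of 16 tested shared cytoskeletal effectors 1 was higher, 5 were lower and 10 did not pass, with a median of -0.31. Ssh3, a phosphatase of the slingshot family, was higher (log2 fold change 0.81, adjusted p = 0.00024). Cfl2, which severs actin filaments, was lower (-1.59, adjusted p = 7.2e-05), as were Ppp3ca, the calcineurin catalytic subunit, (-1.28, adjusted p = 0.00016) and Rnd3, an atypical small GTPase (-1.20, adjusted p = 0.00022).

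Several markers of cell types that use these genes moved with the groups. Their counts stand beside 24.3% higher and 32.1% lower among all genes tested. Lower markers that passed the filter only through MOELOW were Des, Actg2 and Lmod1 of smooth muscle and Col1a2, Pdgfra, Pdgfrb and Postn of stroma. Kdr and Esam of endothelium were in the same position. The 10 smooth muscle markers summed to 71.5 to 109 FPKM in MOEHIGH and 7833 to 11271 FPKM in MOELOW, and 7 of 8 tested were lower, while Myh11, which defines mature smooth muscle, was at most 0.591 FPKM. Of 10 tested fibroblast and stroma markers 7 were lower and 1 was higher, with sums of 3238 to 5842 FPKM in MOEHIGH and 4043 to 5152 FPKM in MOELOW. Vim, which did not pass, carried most of these sums, and without it they were 93.4 to 116 FPKM in MOEHIGH and 641 to 1039 FPKM in MOELOW, with Col1a1 at 18.0 ± 5.79 FPKM in MOEHIGH and 571 ± 102 FPKM in MOELOW. The 1 that was higher, Twist2, had 51.3, 80.7 and 56.5 FPKM in MOEHIGH and 4.87, 3.96 and 8.98 FPKM in MOELOW (log2 fold change 3.24, adjusted p = 3.9e-05). Twist2 carried most of the MOEHIGH sums without Vim, and Dcn did not pass. The endothelial list summed to 0.819 to 1.11 FPKM in MOEHIGH and 9.97 to 14.2 FPKM in MOELOW, and 3 of 3 tested were lower, but Cdh5, Tie1, Vwf, Cldn5 and Erg were listed at 0 in all 6 libraries and Pecam1 was at most 0.0158 FPKM.

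The neuron list summed to 1.79 to 2.75 FPKM in MOEHIGH and 21.3 to 23.7 FPKM in MOELOW, carried by Gap43 and Tubb3, which were both lower, with Rbfox3, Nefl and Dcx at 0 in all 6. Schwann cell markers summed to 31.7 to 34.2 FPKM in MOEHIGH and 40.3 to 47.0 FPKM in MOELOW, with 1 of 2 tested higher and 1 lower and Sox10 and Foxd3 at 0 in all 6. Leukocyte markers summed to 2.63 to 3.85 FPKM in MOEHIGH and 1.91 to 3.099 FPKM in MOELOW, with 1 of 2 tested higher and Itgam, Emr1 and Cd3e at 0 in all 6. The epithelial list had 4 of 8 tested higher and none lower, against 24.3% and 32.1% of all genes tested. Its sums were 2236 to 3440 FPKM in MOEHIGH and 1520 to 1908 FPKM in MOELOW. Krt18 carried most of the MOEHIGH sums, with 2371, 2299 and 1417 FPKM in MOEHIGH and 788, 827 and 779 FPKM in MOELOW. Krt7, Msln and Esrp2 were the other genes higher, and Krt8, Krt19, Pax8 and Ovgp1 did not pass. The part of smooth muscle and stromal cells in the lower levels of Slit2, Slit3, Robo1, Sema3a and Sema7a was not tested.

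Counted by level, 29 guidance genes had a mean of at least 1 FPKM in MOEHIGH and 41 in MOELOW. Among the 20 with a mean of at least 5 FPKM in a group, 7 rose, 9 fell and 4 did not pass, against 27.3% higher and 30.0% lower of the 8856 genes that met the same condition. Of the 24 that were not tested, 7 had a higher and 15 a lower mean in MOEHIGH, and 2 were at 0 throughout. Their highest single value was 0.984 FPKM. Beside those 2, Sema5b and Epha8, 8 were listed at 0 in all MOEHIGH libraries and 4 in all MOELOW libraries.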

How the data were processed

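Strand-specific libraries were made from total RNA of MOEHIGH cells (passages 90, 103 and 113) and MOELOW cells (passages 8, 9 and 10) after ribosomal RNA removal, and the authors named mm10, TopHat2 2.0.8b, Cufflinks and Cuffdiff 2.1.1 with UCSC gene annotation. The deposited values are FPKM per gene, 1 table for each library, and no other per-sample columns were left unused. Absolute depth is not given by FPKM. The value of 1 fragment, read from the lowest values on the log2 scale against passage 8, was -0.35, -0.21 and -0.34 in MOEHIGH and -0.17 and -0.14 in passages 9 and 10. Of 23141 entries per library, 236 symbols were repeated, each represented by its most highly expressed entry.

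The study's Cuffdiff test cannot be run on FPKM. In its place limma 3.58.1 in R 4.3.3 compared MOEHIGH with MOELOW on log2(FPKM + 1), with a variance trend and no block, where the mean over libraries reached 0.5 FPKM, two-sided, with Benjamini-Hochberg adjustment over all 11621 genes at 0.05. Sums over families were compared by an exact permutation test. Further calculations used Python 3.11.15, pandas 2.3.3, numpy 2.4.6 and scipy 1.17.1. Values per library are given for called members with a group mean of at least 5 FPKM, for uncalled members at that level and for lower members called with an absolute log2 fold change of at least 1, and other members were named after their values were seen. Up to 3 called genes per direction and list, with a group mean of at least 5 FPKM, are named from the pathway lists. The rule for members reads gene symbols only, but it and the lists were chosen with earlier results of these data known.

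The test was run on simulated data for the comparison of MOEHIGH with MOELOW, with 200 changed genes of 11621. It recovered 55.2% of the 1.5-fold, 92.5% of the 2-fold and 100% of the 4-fold changes, with 6.2% false calls. In the data 56.4% of all genes tested were called and the split moved with the scaling. The simulation had neither trait, so its rates need not hold for the data. The 20 alternatives were 4 scalings, pseudocounts of 0.1 and 0.01, 3 filters, no variance trend, a threshold of 0.01, a 2-fold minimum in the test, the replicate number as a block, summed repeats and each library left out. Positions and promoter sequences were taken from RefSeq on GRCm38.p6.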

Additional observations from a re-analysis of the deposited data

How the results depend on the processing

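Of the 31 called guidance genes, 11 (Sema3a, Sema3f, Sema4b, Sema4d, Sema7a, Nrp2, Efnb1, Slit2, Slit3, Robo1 and Ntn1) kept their call under every alternative that could be run for them, and 20 lost it under at least 1, for most of them only the test against a 2-fold change. That test called 3 guidance genes higher and 8 lower, and 303 and 907 of all genes. Of the 11 that kept their call, Sema7a, Slit2, Slit3, Robo1 and Ntn1 passed the main filter only through MOELOW and Sema4d only through MOEHIGH. The filter of 5 FPKM could not be run for these genes. At a filter of 5 FPKM in the mean, 19 guidance genes were tested, 7 were higher and 8 lower, with 2287 higher and 2350 lower of 8325 genes, and the median log2 fold change of the guidance genes was -0.056, in place of -0.50. With at least 0.5 FPKM in both groups, an alternative chosen after seeing the data, 13 guidance genes were lower. Leaving out each library in turn gave 7 to 8 guidance genes higher and 20 to 27 lower, and 2212 to 3318 higher and 3030 to 4378 lower among all genes.

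The sign of 1 called gene turned, Ephb6 with 0.058 after quantile normalization. Among genes that had not passed, quantile normalization turned the log2 fold change of Sema3b to 0.35, Sema4c to 0.020, Sema6c to 0.28, Plxna3 to 0.12, Efna2 to 0.32, Epha4 to 0.043 and Ntn3 to 0.43, and median ratio scaling turned Sema3c to 0.0078, Epha4 to 0.036 and Ntn3 to 0.0023. Leaving out each library in turn gave -0.19 to 0.060 for Sema3c, -0.37 to 0.045 for Efna2, -0.31 to 0.022 for Epha2, -0.15 to 0.13 for Epha4, -0.094 to 0.046 for Ntn3 and a log2 ratio of -0.30 to 0.022 for the EphA sum, with the highest value without passage 90 for Efna2 and without passage 103 for the others. The cause was not tested.

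The deviations of each library from its group mean were correlated between the groups. Same-numbered libraries gave -0.02, -0.15 and 0.12, within the -0.19 to 0.22 of the other pairs. The replicate numbers therefore gave no sign of a pairing. The fit with the replicate number as a block called 8 guidance genes higher and 23 lower, and 2967 and 3839 of all genes. It lost Plxna1 (adjusted p = 0.063) and called Epha7 lower (adjusted p = 0.014). Of 512 counts by family and alternative, 59 moved by more than 1.5 times, mostly counts of 1 or 2. FPKM give no absolute depth, so differences among genes below 1 FPKM are the least certain.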
